A study of Mus musculus with 9 samples.

Results

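Chemokine ligand genes were followed in mouse embryonic fibroblasts (MEFs) that carried no working copy, 1 copy or both copies of Oga. They comprised every probe set whose platform symbol was Ccl, Cxcl or Cx3cl with a number, which gave 32 genes, measured by 50 of 45037 non-control probe sets. A further 4 probe sets listed such a symbol among several genes and were not used. Oga encodes O-GlcNAcase, the enzyme that takes O-linked N-acetylglucosamine off intracellular proteins. The groups were a knockout (KO) line, a heterozygous (Het) line and a wild-type (WT) line, each measured on 3 arrays. All were cultured in DMEM from female embryos at E12.5. Parents came from a cross of Oga floxed C57B1/6 males with MMTV-cre females, followed by intercrosses of heterozygous offspring. MMTV-cre is a Cre recombinase transgene driven by a mouse mammary tumour virus promoter. Each genotype was represented by 1 embryo code in the sample titles, and the design text calls the 3 arrays technical replicates. All p-values here compare differences with the array-to-array spread only, and genotype cannot be told apart from other differences between the 3 lines.

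Chemokines are small secreted proteins that guide the movement of leukocytes through G protein-coupled receptors. Those of the CC group mostly attract monocytes, eosinophils, dendritic cells and lymphocytes, whereas CXC members with a glutamate-leucine-arginine (ELR) motif attract neutrophils and those without it mainly lymphocytes. In fibroblasts many inflammatory members are switched on through NF-kappa B, and resident macrophages are a rich source of several CC members. Cxcl12 is the typical constitutive chemokine of stromal cells.

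Promoter sequence is shown for some of the called members: Ccl12, Ccl9 and Cxcl15, which fell, and Ccl20, which rose. It is also shown for Cxcl1, whose probe sets differed from each other. Each is the stretch of 250 bases before the annotated start, from RefSeq on GRCm38.p6, and capitals mark matches to the NF-kappa B (kappa B) consensus on either strand. The stretches lie at chr11:82101595-82101844, plus strand, at chr11:83578637-83578886, minus strand, at chr5:90794284-90794533, plus strand, at chr1:83116516-83116765, plus strand, and at chr5:90890995-90891244, plus strand.
Ccl12: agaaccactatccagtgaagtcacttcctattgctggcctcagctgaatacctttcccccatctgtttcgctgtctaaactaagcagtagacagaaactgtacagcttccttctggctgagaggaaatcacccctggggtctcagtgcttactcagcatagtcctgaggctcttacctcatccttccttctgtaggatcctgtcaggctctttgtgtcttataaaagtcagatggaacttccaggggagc
Ccl9: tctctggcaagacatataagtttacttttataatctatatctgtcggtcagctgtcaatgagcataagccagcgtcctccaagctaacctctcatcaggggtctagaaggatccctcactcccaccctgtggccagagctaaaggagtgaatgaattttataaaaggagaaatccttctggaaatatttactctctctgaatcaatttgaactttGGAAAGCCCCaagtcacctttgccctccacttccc
Cxcl15: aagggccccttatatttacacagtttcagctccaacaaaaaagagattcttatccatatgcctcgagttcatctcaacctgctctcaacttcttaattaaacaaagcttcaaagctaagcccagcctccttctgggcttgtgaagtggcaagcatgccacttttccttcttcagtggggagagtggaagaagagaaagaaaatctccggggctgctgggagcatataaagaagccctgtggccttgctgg
Ccl20: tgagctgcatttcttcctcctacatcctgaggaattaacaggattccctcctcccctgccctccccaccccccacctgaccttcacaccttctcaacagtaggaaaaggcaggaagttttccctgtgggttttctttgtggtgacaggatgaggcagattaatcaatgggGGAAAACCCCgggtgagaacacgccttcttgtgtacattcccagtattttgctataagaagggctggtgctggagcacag
Cxcl1: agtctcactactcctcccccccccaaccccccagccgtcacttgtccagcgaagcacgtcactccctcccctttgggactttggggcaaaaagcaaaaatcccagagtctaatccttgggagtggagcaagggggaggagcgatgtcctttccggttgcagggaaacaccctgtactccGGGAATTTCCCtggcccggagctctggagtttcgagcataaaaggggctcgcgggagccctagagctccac
Promoter entries were found for 22 of the 32 genes, in 25 stretches. The genes printed are not always those with the largest change in their group. Ccl3 (-2.15) fell more than Ccl9 (-2.06) in KO against WT, and its stretch, not printed, held no kappa B match. Cxcl5 (-2.34) fell more than Cxcl15 (-1.66) in Het against WT and had no promoter entry. The consensus matched in 7 of the 25 (28%), those of Ccl1, Ccl9, Ccl20, Cxcl1, Cxcl2, Cxcl3 and Cxcl10, against 7.25% of all 32851 stretches of the same length. In Ccl20 the matching letters GGAAAACCCC ended 71 bases before the start, and in Cxcl1 the letters GGGAATTTCC ended 62 bases before it. Overlapping matches, such as the 2 in Cxcl1, were counted separately and marked as 1 run. The core GAAANNGAAA, found in promoters of interferon-induced genes, matched on either strand in 2 of the 25 (Cxcl10 and Cxcl14, 8%), against 2.98% of all stretches. A match describes the letters only.

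The background value was set at a log2 value of 6.22, the level below which the lowest 40% of probe sets lay. It is a rank within these arrays and not a detection call: the T cell gene Cd3e, at 7.14 in KO, 7.13 in Het and 7.09 in WT arrays, also lay above it. Of the 6 measured T and B cell markers, 4 were above it in each line, and Cd3g and Ms4a1 were below it. The members Ccl24, Ccl28, Cxcl11 and Cxcl13 lay below Cd3e in every line, so whether they are expressed here cannot be told. Other members lay below Cd3e in some lines only, such as Ccl17 and Ccl20 in Het and WT. The 9 probe sets of Y-linked genes, which female cells lack, lay between 3.57 and 4.73. By construction, 27022 of the 45037 non-control probe sets lay at or above the background value by mean over the 9 arrays. Of the 50 member probe sets, 34 did. The share of all genes above background by their most abundant probe set was not counted. By its most abundant probe set, a member gene was above background in the KO line in 23 of 32 cases, in the Het line in 24 and in the WT line in 25. The 7 genes below it in every line were Ccl1, Ccl8, Ccl11, Ccl22, Cxcl2, Cxcl3 and Cxcl9, with line means from 4.07 (Cxcl3 in KO) to 6.03 (Ccl22 in WT). In these cultures the eosinophil attractant Ccl11 and the neutrophil attractants Cxcl2 and Cxcl3 thus gave signal within the range of the Y-linked probe sets, with line means from 4.07 to 4.59.

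Array values correlated at r = 0.997 to 0.999 within lines and at 0.989 to 0.996 between them. Oga at its most abundant probe set read 6.06 ± 0.026 in KO, 11.16 in each Het array and 11.92 ± 0.033 in WT (SD, n = 3 arrays). All 8 fibroblast markers, among them Col1a1 and Vim, were above background in every line, and 1 of them, Pdgfra, fell in KO against WT (-2.55). Dcn was lower there too (-0.93), short of 2-fold, and the median of the 8 was -0.06. The 21 measured macrophage and blood markers were above background in every line too. Of 6 endothelial markers, 2 were above background in KO, 1 in Het and 1 in WT.

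**Figure D1:**
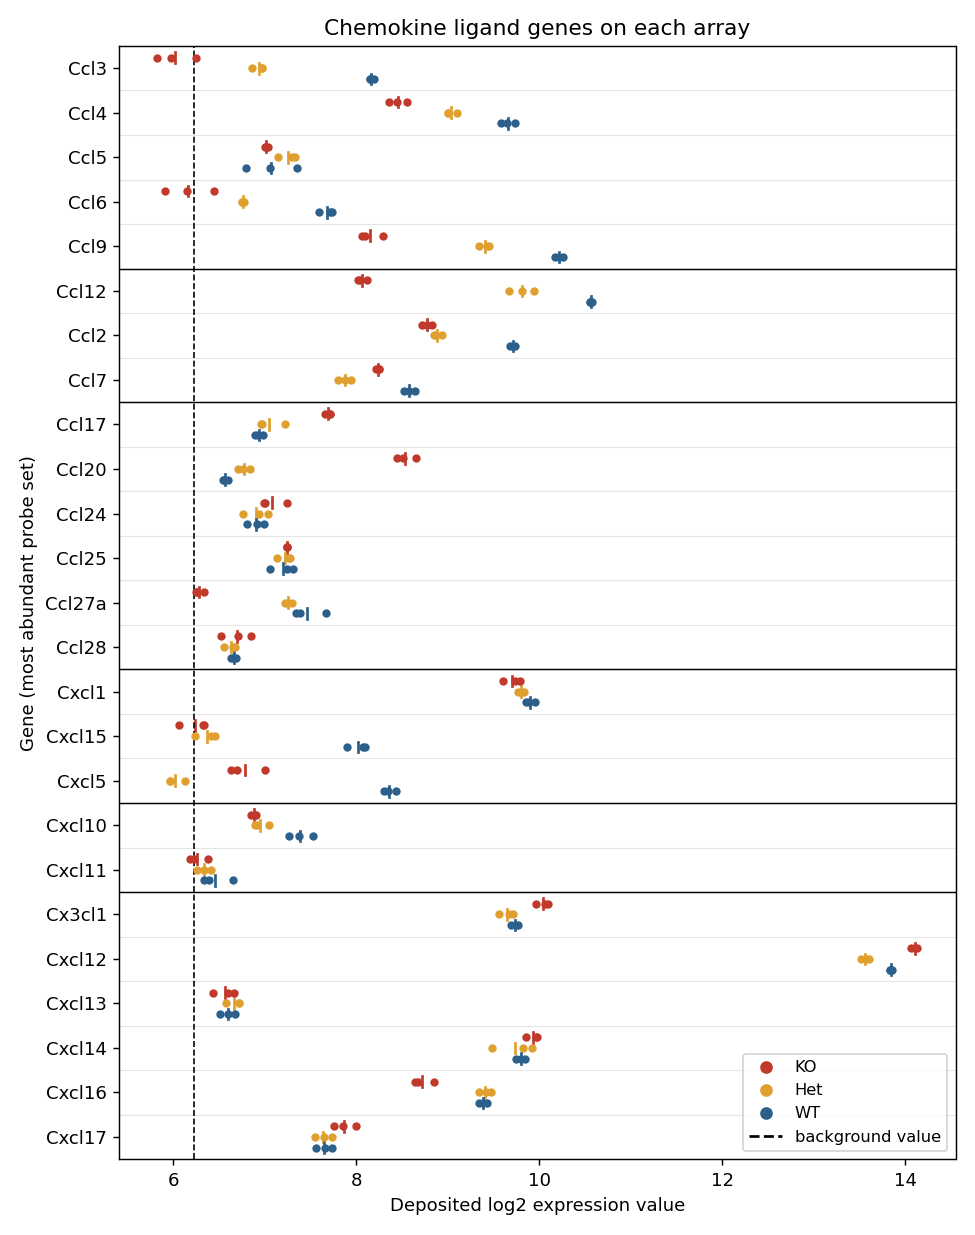
Deposited log2 value (x axis) of the 25 chemokine genes above background in at least 1 line, by their most abundant probe set, on each array: 3 points and a mean bar for KO (red), Het (yellow) and WT (blue). The dashed line is the background value of 6.22, and solid lines separate the families; Ccl20 stands apart in KO, Cxcl5 and Cxcl15 in WT, and Ccl3, Ccl4, Ccl6, Ccl9 and Ccl12 are lowest in KO, intermediate in Het and highest in WT.

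Of the 50 probe sets, 34 passed the low-value filter and were tested, for 25 genes. A probe set was called when its limma adjusted p over all 27022 probe sets tested was below 0.05 and its difference reached 2-fold. In KO against WT, 10 of the 34 fell (9 genes), where 1.89% of all probe sets tested fell, and 1 rose, where 0.988% of all did. Together that is 32.4% of the 34, against 2.88% of all. In Het against WT, 5 fell (5 genes), where 0.229% of all fell, and 0 rose, where 0.13% of all did, or 14.7% of the 34 against 0.359% of all. In KO against Het, 3 fell and 1 rose, where 1.01% of all fell and 0.625% rose, or 11.8% against 1.64%. At any fold, 22 of the 34 passed the adjusted p threshold in KO against WT, 17 in Het against WT and 21 in KO against Het, where 47.1%, 36.6% and 46.1% of all did. A probe set can pass the filter through the line in which it is high, so these shares describe those 34 only. The median log2 difference of the 34 was -0.12 for KO minus WT, -0.18 for Het minus WT and 0.01 for KO minus Het, and over all probe sets tested it lay between -0.01 and 0.00. KO minus WT and Het minus WT share the WT arrays.

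The CC chemokines typical of activated macrophages were lowest in KO, intermediate in Het and highest in WT in 4 of 5 cases. These 4 fell in KO against WT. Ccl3, a ligand of Ccr1, read 5.83, 5.98 and 6.25 in KO arrays, 6.98, 6.97 and 6.86 in Het arrays and 8.16, 8.20 and 8.15 in WT arrays. The 3 lines did not overlap, and only 1 of the KO arrays was above background. Ccl3 was therefore at least 3.82-fold lower in KO than in WT (fitted log2 difference -2.15 ± 0.088, SE, adjusted p = 1.7e-08) and was 2.35-fold lower in Het than in WT (-1.23 ± 0.088, adjusted p = 7.1e-06).

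Ccl9, a mouse ligand of Ccr1, read 8.07, 8.10 and 8.29 in KO, 9.34, 9.46 and 9.43 in Het and 10.17, 10.27 and 10.21 in WT. It fell in KO against both WT (-2.06 ± 0.063, adjusted p = 2.3e-09) and Het (-1.26 ± 0.063, adjusted p = 1.5e-07), with all 3 lines separate. Its second probe set showed the same order at 7.04, 7.94 and 9.03 in KO, Het and WT and was also called in Het against WT (-1.08). In that comparison the most abundant probe set was short of 2-fold (-0.81), so the Het call for Ccl9 depends on the probe set.

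Ccl6, which likewise signals through Ccr1 in the mouse, read 6.15, 6.44 and 5.91 in KO, 6.76, 6.77 and 6.75 in Het and 7.72, 7.74 and 7.60 in WT. Its KO mean was below background, so it was at least 2.61-fold lower in KO than in WT (fitted -1.51 ± 0.107, adjusted p = 1.1e-06). Ccl4, an attractant of monocytes and T cells, read 8.45, 8.56 and 8.36 in KO, 9.0, 9.1 and 9.0 in Het and 9.64, 9.59 and 9.73 in WT, and fell 2.30-fold in KO against WT (-1.20 ± 0.061, adjusted p = 8.5e-08). Its Het value was 1.54-fold below WT. Ccl5, a chemokine made by T cells and by virus-stimulated cells, did not pass in any comparison. It read 7.0 on each array in KO, 7.33, 7.30 and 7.15 in Het and 7.05, 6.80 and 7.35 in WT. These values are near those of the T cell gene Cd3e (7.14 in KO, 7.13 in Het, 7.09 in WT), so whether Ccl5 is expressed here cannot be told. In the RefSeq gene order Ccl5, Ccl9, Ccl6, Ccl3 and Ccl4 follow each other on chromosome 11 with no other protein-coding gene between them, so the 4 called genes and Ccl5 lie in 1 run.

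Among the attractants of monocytes, most of which act through Ccr2, Ccl12 showed the largest fall of any tested member in KO against WT. It read 8.02, 8.12 and 8.05 in KO, 9.68, 9.94 and 9.81 in Het and 10.56, 10.58 and 10.56 in WT. No KO array came near a Het or WT array, and the KO mean was 5.67-fold below WT (-2.50 ± 0.063, adjusted p = 7.6e-10) and 3.36-fold below Het (-1.75 ± 0.063, adjusted p = 1.7e-08). Ccl2, Ccl7, Ccl11, Ccl12, Ccl8 and Ccl1 form another run on chromosome 11, and of its 3 tested genes (Ccl2, Ccl7 and Ccl12) only Ccl12 was called. Ccl2, the classical monocyte attractant, read 8.72, 8.82 and 8.77 in KO, 8.85, 8.94 and 8.87 in Het and 9.72, 9.74 and 9.68 in WT. Both mutant lines were below WT, 1.92-fold in KO and 1.77-fold in Het, short of 2-fold. KO and Het did not overlap, but their difference of -0.12 did not pass (adjusted p = 0.058). Ccl7 was lowest in Het, at 8.22, 8.25 and 8.25 in KO, 7.80, 7.94 and 7.88 in Het and 8.57, 8.64 and 8.52 in WT, with differences from WT of -0.34 in KO and -0.70 in Het. The fourth member of the group, Ccl8, was below background in every line.

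Markers of macrophages had the same order of lines by median as Ccl3, Ccl4, Ccl6, Ccl9 and Ccl12. Of the 21 measured, 20 fell and 0 rose in KO against WT, with a median log2 difference of -1.75, and in Het against WT 0 were called, with a median of -0.35 and the largest differences in Mrc1 (-0.84) and Cd68 (-0.78). In KO against Het 19 fell, with a median of -1.38. Their summed level on the linear scale of the deposited values ran from 19537 to 20378 in KO, from 53144 to 56011 in Het and from 67392 to 69251 in WT. The lysosomal marker Cd68 read 8.89 in KO, 10.75 in Het and 11.52 in WT, and the lysozyme gene Lyz2 read 11.88 in KO, 13.53 in Het and 13.77 in WT. The 5 macrophage-associated CC chemokines had medians of -1.51 in KO and -0.81 in Het, both against WT, and -0.59 in KO against Het. The 3 tested monocyte-directed chemokines had medians of -0.94, -0.76 and -0.12 in these comparisons, and Ccl2 (-0.12) and Ccl7 (0.36) did not share the markers' fall in KO against Het. In bulk RNA, fewer cells of a type and less RNA per cell cannot be told apart, and the part of macrophage number in the chemokine differences was not tested.

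**Figure D2:**
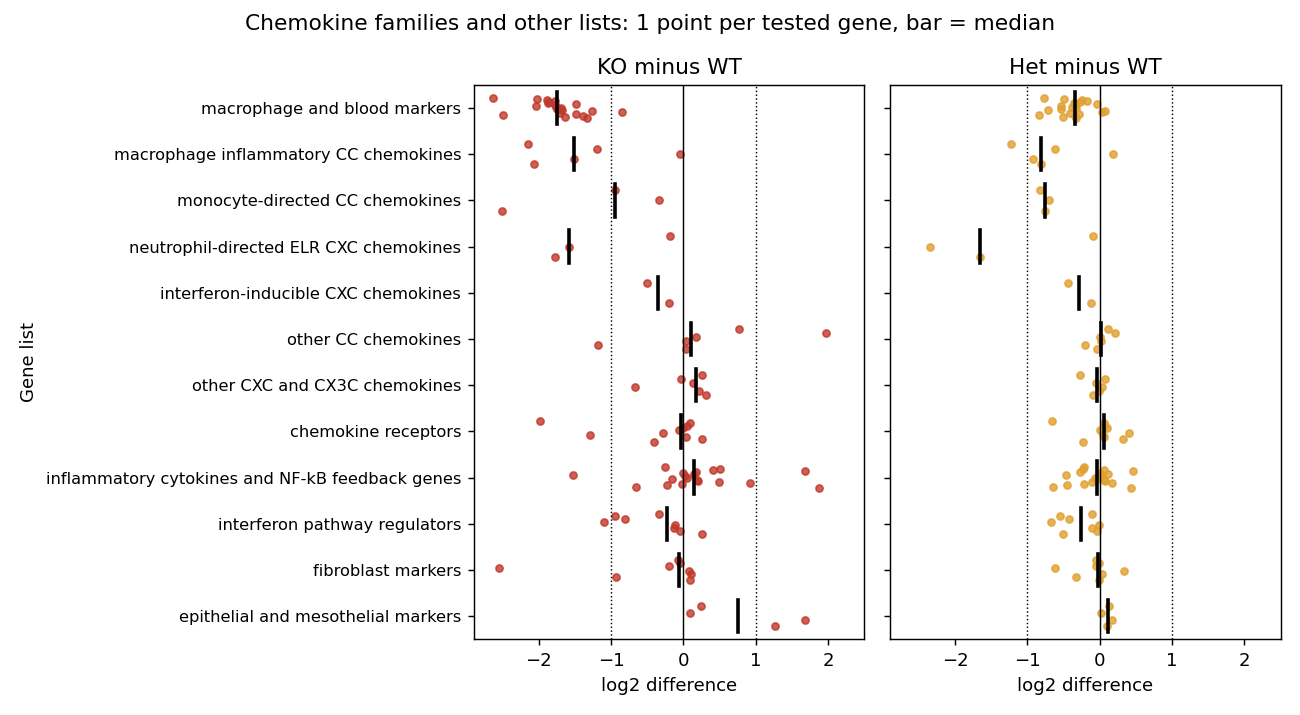
log2 difference (x axis) of each tested gene by list, for KO minus WT (left, red) and Het minus WT (right, yellow); black bars are list medians and dotted lines mark 2-fold. The macrophage markers have medians of -1.75 and -0.35, the macrophage-associated CC chemokines -1.51 and -0.81, and the ELR CXC chemokines -1.58 and -1.66.

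Of the ELR CXC chemokines, which attract neutrophils mostly through Cxcr2, 2 of the 3 tested genes, Cxcl5 and Cxcl15, fell in both the KO and the Het line against WT. Cxcl5 read 6.70, 7.01 and 6.64 in KO, 5.97, 6.13 and 5.97 in Het and 8.34, 8.43 and 8.31 in WT. The lines did not overlap, and all 3 Het arrays were below background. Cxcl5 was at least 4.40-fold lower in Het than in WT (fitted -2.34 ± 0.090, adjusted p = 2.0e-07) and 3.00-fold lower in KO than in WT (-1.58 ± 0.090, adjusted p = 2.0e-07). In KO it stood at least 1.47-fold above Het (fitted 0.76 ± 0.090, adjusted p = 6.9e-05), which did not reach 2-fold.

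Cxcl15, known as lungkine in the mouse and described from lung epithelium, read 6.34, 6.06 and 6.32 in KO, 6.41, 6.23 and 6.45 in Het and 8.07, 7.90 and 8.09 in WT. It fell by 1.78 in KO (adjusted p = 6.3e-08) against WT on the log2 scale and likewise in Het (-1.66, adjusted p = 1.3e-06), to means of 6.24 and 6.37 that are barely above background, while KO and Het overlapped. A second Cxcl15 probe set lay below background in every line (5.74 in KO, 5.73 in Het, 6.20 in WT) and was not tested. The signal of Cxcl15 thus rests on 1 probe set.

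Cxcl1, a neutrophil attractant that stimulated mouse fibroblasts release, gave different answers by probe set. The probe set 1419209_at read 7.35, 7.41 and 7.33 in KO, 6.63, 6.75 and 6.95 in Het and 7.98, 7.87 and 7.86 in WT, and fell 2.18-fold in Het against WT (-1.13 ± 0.074, adjusted p = 4.5e-06), the same order of lines as Cxcl5. The most abundant, 1441855_x_at, read 9.71 ± 0.095 in KO, 9.80 ± 0.035 in Het and 9.90 ± 0.053 in WT (SD, n = 3 arrays) and differed from WT by -0.19 in KO and -0.09 in Het. For 1457644_s_at the differences from WT were -0.06 and -0.23. The suffixes x and s mark probe sets whose probes can also match other sequences or several transcripts, and the probe set with neither suffix is the only one of the 3 that was called.

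In the RefSeq order Cxcl5, Ppbp, Pf4, Cxcl3, Cxcl15, Cxcl1 and Cxcl2 follow each other on chromosome 5 with no other protein-coding gene between them. The platelet chemokine genes Ppbp and Pf4 carry no Cxcl symbol and are no members, but lie inside this run. Ppbp read 6.52, 6.40 and 6.39 in KO, 5.12, 5.24 and 5.14 in Het and 6.79, 6.55 and 6.90 in WT, lowest in Het as Cxcl5 was. It lay just under the low-value filter and was not tested, and its Het mean was below background. Pf4, which macrophages also make, read 8.08, 8.12 and 8.36 in KO, 9.47, 9.52 and 9.49 in Het and 10.05, 10.13 and 10.12 in WT. It fell in KO against WT (-1.91 ± 0.067) and against Het (-1.30), the order seen in Ccl9 and Ccl12, so 2 orders of the lines occur within the run.

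Of the Cxcr3 ligands induced by interferon, which attract activated T cells, none was called. Cxcl10 read 6.90, 6.91 and 6.85 in KO, 6.91, 6.90 and 7.05 in Het and 7.53, 7.27 and 7.38 in WT. Neither mutant line overlapped WT, with differences of -0.51 in KO (adjusted p = 1.4e-04) and -0.44 in Het (adjusted p = 7.4e-04), both short of 2-fold. Cxcl11, which RefSeq lists as a transcribed pseudogene in C57BL/6J, read 6.27 ± 0.102 in KO, 6.33 ± 0.078 in Het and 6.46 ± 0.170 in WT and did not pass. Cxcl9 was below background. Among 8 tested regulators of interferon signalling, Stat2 fell in KO against WT (-1.10 ± 0.106), 0 rose, and the list median was -0.23 in KO and -0.26 in Het against WT, with 0 called in Het, where Stat2 (-0.68) and Irf7 (-0.55) differed most.

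Ccl20 was the only called rise among the tested members, in KO against WT and in KO against Het. Ccl20 is the ligand of Ccr6 and attracts dendritic cells and lymphocytes. It read 8.65, 8.51 and 8.45 in KO, 6.84, 6.76 and 6.71 in Het and 6.56, 6.60 and 6.54 in WT. Every KO array lay far above the other 6, and KO was 3.92-fold above WT (1.97 ± 0.058, adjusted p = 1.9e-09) and 3.40-fold above Het (1.77 ± 0.058, adjusted p = 9.7e-09). Het stood 1.15-fold above WT (adjusted p = 0.019). Both of these lines lay below Cd3e (7.13 in Het, 7.09 in WT), so whether Ccl20 is expressed in them cannot be told. Its promoter stretch printed above holds 1 match to the kappa B consensus, as does that of Ccl9, which fell in KO. Whether either match bears on expression here was not tested. Among 4 tested epithelial and mesothelial markers, the keratin genes Krt18 (1.68) and Krt19 (1.26) rose in KO against WT with it and 0 fell. The epithelial cadherin gene Cdh1 was below background in every line (4.03 in KO, 4.25 in Het, 4.21 in WT). The summed level of the 8 measured markers ran from 1578 to 1652 in KO, from 1039 to 1068 in Het and from 984 to 1007 in WT, and the part of epithelial cells in the Ccl20 difference was not tested.

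Ccl17, a Ccr4 ligand that attracts T helper and regulatory T cells, was higher in KO but short of 2-fold: 7.65, 7.72 and 7.72 in KO, 6.97, 7.22 and 6.96 in Het and 6.90, 6.98 and 6.92 in WT, with 0.76 ± 0.067 for KO minus WT (adjusted p = 5.8e-06). Its neighbour Cx3cl1, or fractalkine, a membrane-bound ligand of Cx3cr1, read 10.06, 9.97 and 10.10 in KO, 9.56, 9.67 and 9.72 in Het and 9.74, 9.77 and 9.69 in WT. There KO was above WT by 0.31 at the most abundant probe set (adjusted p = 9.2e-04) and by 0.10 at the second, which did not pass. The next gene in that run, Ccl22, also a Ccr4 ligand, was below background.

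Ccl27a, a skin chemokine that binds Ccr10, fell in KO against WT, where its only single-gene probe set read 6.26, 6.25 and 6.34 in KO, 7.23, 7.30 and 7.25 in Het and 7.38, 7.67 and 7.34 in WT. The difference was -1.18 ± 0.076 (adjusted p = 5.4e-07), with KO close to background and Het at -0.21 from WT (adjusted p = 0.058). This probe set has the suffix x, and the annotation gives other probe sets to Ccl27a together with Ccl27b and further copies, so signal of near-identical genes cannot be told apart. The remaining CC members above background passed in no comparison: Ccl24, a Ccr3 ligand, Ccl25, the thymic and gut ligand of Ccr9, and Ccl28, a mucosal Ccr10 ligand, had KO minus WT differences of 0.17, 0.04 and 0.03. The other tested probe set of Ccl25 had a KO minus WT difference of -0.04 and passed in no comparison either.

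Of the other CXC chemokines and Cx3cl1, 0 of 6 genes were called by their most abundant probe set in any comparison. Cxcl12, the ligand of Cxcr4 and Ackr3 that retains haematopoietic cells in stroma, read 14.11, 14.13 and 14.06 in KO, 13.60, 13.52 and 13.57 in Het and 13.83, 13.86 and 13.84 in WT. The 3 lines were separate but close: KO was 1.20-fold above WT (adjusted p = 4.3e-04), Het 1.21-fold below WT (adjusted p = 5.6e-04) and KO 1.45-fold above Het. A second probe set at a similar level gave the same order (13.68 in KO, 13.16 in Het, 13.44 in WT), and another, at 7.84, 7.58 and 7.74, did not pass in KO against WT. The order KO above WT above Het thus held at all 3 of its probe sets.

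Cxcl16, a transmembrane ligand of Cxcr6 made by macrophages and other cells, was lower in KO at both probe sets. The most abundant read 8.65, 8.85 and 8.68 in KO, 9.35, 9.47 and 9.42 in Het and 9.43, 9.38 and 9.35 in WT, which is short of 2-fold (-0.66 ± 0.060, adjusted p = 6.9e-06). The second read 6.87, 6.79 and 6.83 in KO, 7.73, 7.83 and 7.96 in Het and 7.86, 7.92 and 7.93 in WT. It fell in KO against WT (-1.08 ± 0.060, adjusted p = 1.7e-07) and against Het (-1.01). This called probe set, 1449195_s_at, has the suffix s, whereas the most abundant, 1418718_at, has neither suffix and was not called. At neither probe set did Het pass against WT, and their arrays overlapped. The call against Het was within 2-fold with quantile normalization (-0.97), median centring (-0.96), without Het replicate 3 (-0.95) or without KO replicate 2 (-0.99).

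Cxcl14, an epithelial and stromal chemokine, read 9.93 ± 0.065 in KO, 9.74 ± 0.230 in Het and 9.80 ± 0.049 in WT and passed in no comparison at its most abundant probe set. Its second probe set, at 9.76 in KO, 9.48 in Het and 9.55 in WT, passed only in KO against Het. That difference (0.29, adjusted p = 0.016) was short of 2-fold. Cxcl17, a mucosal chemokine, read 7.87 ± 0.120 in KO, 7.64 ± 0.093 in Het and 7.65 ± 0.085 in WT, with 0.22 for KO minus WT (adjusted p = 0.029). The B cell attractant Cxcl13 was at 6.57, 6.67 and 6.60 in KO, Het and WT and did not pass.

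**Figure D3:**
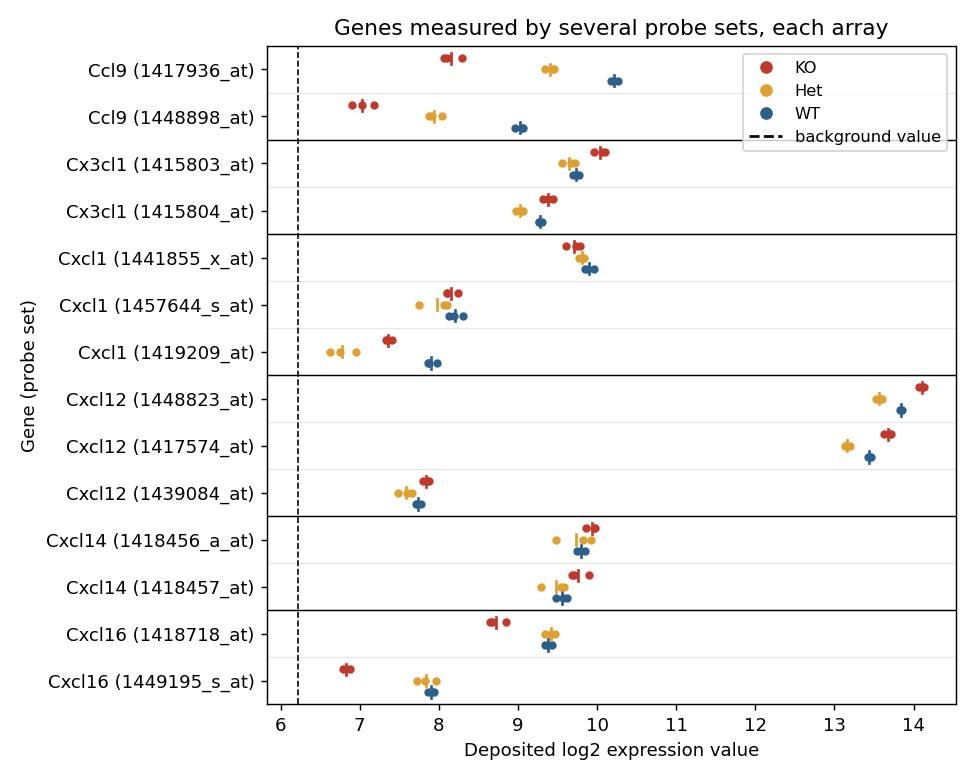
Deposited log2 values (x axis) on each array for 6 chemokine genes measured by several tested probe sets, with 3 points and a mean bar for KO (red), Het (yellow) and WT (blue). Ccl25, which also has several tested probe sets, is not shown. The probe sets of Ccl9, Cxcl12 and Cxcl16 keep the same order of lines or the same low KO values, whereas only 1419209_at of the 3 Cxcl1 probe sets separates Het (6.78) widely from WT (7.90).

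**Figure D4:**
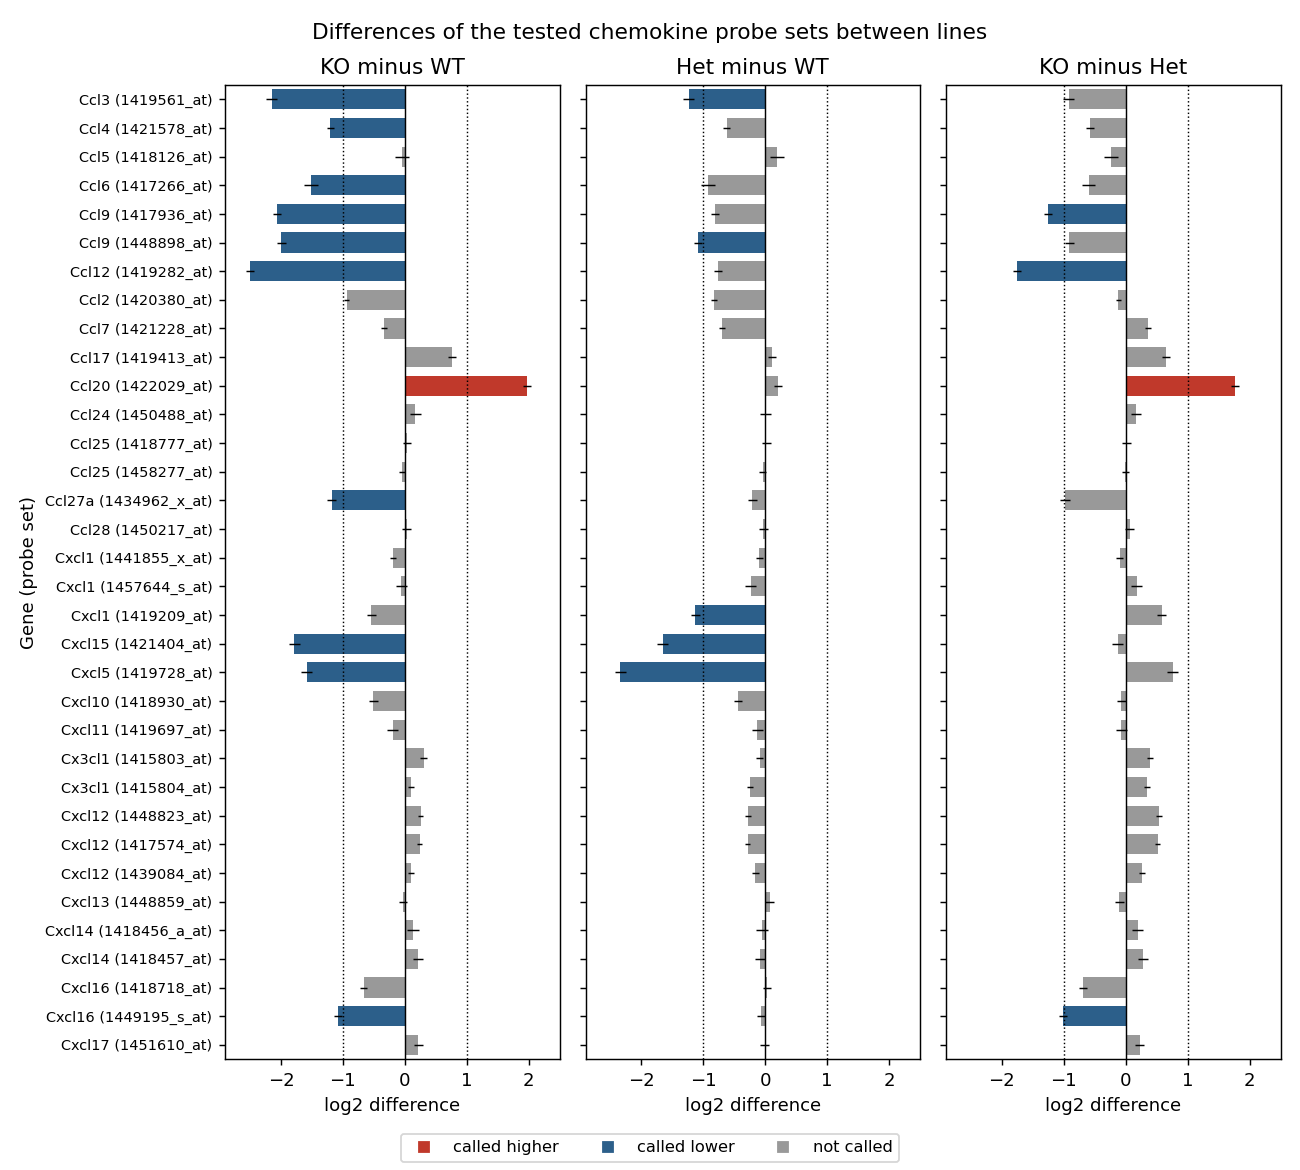
log2 differences (x axis) of the 34 tested chemokine probe sets for KO minus WT, Het minus WT and KO minus Het, with standard errors from the limma fit; red bars are called higher, blue bars called lower, grey bars not called, and dotted lines mark 2-fold. KO minus WT has 10 blue bars and 1 red bar (Ccl20), and Het minus WT has 5 blue bars, with Cxcl5 at -2.34 and Cxcl15 at -1.66.

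Of 22 measured chemokine receptors, 10 passed the low-value filter, and in KO against WT 2 of them fell, 0 rose and 8 were not called (median -0.03). Ccr1, the receptor of Ccl3, Ccl6 and Ccl9, read 7.71, 7.67 and 7.48 in KO, 8.87, 8.97 and 8.97 in Het and 9.60, 9.57 and 9.63 in WT, and fell by 1.98 on the log2 scale in KO against WT. Cx3cr1, the receptor of Cx3cl1, read 9.36, 8.99 and 9.15 in KO, 10.61, 10.47 and 10.42 in Het and 10.52, 10.44 and 10.42 in WT and fell by 1.29. Both are made by macrophages, and the macrophage marker median there was -1.75. In Het against WT that median was -0.35, with Ccr1 at -0.66 and Cx3cr1 at 0.04. The part of macrophage number in the receptor differences was not tested. Ccr2, through which most of the monocyte attractants act, passed in no comparison at its most abundant probe set (8.02 in KO, 7.99 in Het, 7.92 in WT). The neutrophil receptor Cxcr2 and the Ccl20 receptor Ccr6 were below background in every line. In Het against WT 0 receptors were called (median 0.06), with Ccr1 (-0.66) and Cxcr4 (0.41) the farthest from WT, and in KO against Het Ccr1 (-1.32) and Cx3cr1 (-1.33) fell.

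Of 19 tested inflammatory cytokine and NF-kappa B feedback genes, 2 rose, 1 fell and 16 were not called in KO against WT (median 0.15). The leukaemia inhibitory factor gene Lif read 9.78 in KO, 8.56 in Het and 8.10 in WT (KO minus WT 1.68 ± 0.050), and the cyclooxygenase gene Ptgs2 rose by 1.88 ± 0.084. The alarmin gene Il33 fell by 1.53. Among those not called, the feedback inhibitor gene Tnfaip3 (0.92) and the adhesion molecule gene Vcam1 (-0.65) lay farthest from WT in each direction. In Het against WT 0 of the 19 were called (median -0.03), and Vcam1 (-0.64) and Il33 (-0.47) differed most.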

How the data were processed

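Expression was measured on 9 arrays, 3 for each of the KO, Het and WT lines. The authors deposited 1 table of log2 values for 45101 probe sets; base 2 was inferred from their range. The submitters' processing notes name GCOS and Partek without versions; background correction, normalization and summarization are not given in the sources used here. No scanner files were used here. The 64 control probe sets and the lowest 40% of the others by mean over all 9 arrays were left out, leaving 27022. Lines were compared with limma 3.58.1 (lmFit, eBayes) in R 4.3.3 on all 9 arrays, with Benjamini-Hochberg adjustment over all probe sets tested. Steps were tested on simulated data. A gene was described through its most abundant probe set, and its other tested probe sets beside it.

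Named with values were all member genes above background in at least 1 line and all called members. Of other lists, genes called in KO against WT are named, but only Cd68, Lyz2 and Mrc1 of the 20 called macrophage markers. For Het against WT, where none was called, the 2 with the largest difference are named for macrophage markers, receptors, inflammatory genes and interferon regulators. In KO against Het, calls outside the members are named for the receptors and Pf4 only, although other lists held calls there. Further genes (Cd3e, Cd3g, Ms4a1, Ccr2, Cxcr2, Ccr6, Cdh1, Dcn, Ppbp, Tnfaip3 and, in KO against WT, Vcam1) were chosen after their values were seen. Members and lists were chosen with earlier results of these data known. Where 1 line was below background, a fold is a lower bound, its arrays being set to the background value where they were lower. Entrez identifiers of all 32 member genes matched RefSeq (GRCm38.p6), used for gene order and promoters. Precision is limited by having 3 arrays and 1 line per genotype. Plots used matplotlib 3.10.9 (Python 3.11.15).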

Additional observations from a re-analysis of the deposited data

How the results depend on the processing

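Alternatives were quantile normalization, median centring, other filters, 1 probe set or the mean of probe sets per gene, other fold minimums, a trended and robust variance, fits of only the compared lines, a replicate block, each array left out and, chosen after seeing the data, values floored at background. Of the 20 calls among members, 19 were made under every alternative that kept the 2-fold minimum and tested the probe set; the exception was the second Cxcl16 probe set in KO against Het. No called difference changed sign. With 1 probe set or the mean of probe sets per gene, 3 members were called in Het against WT in place of 5. Of all genes tested, 0.255% were called under either setting. The called probe sets of Ccl9 and Cxcl1 are not the most abundant, and the mean includes their uncalled probe sets. At 1.5-fold, 14 were called in KO against WT, 11 in Het against WT and 11 in KO against Het. Of all probe sets, 8.44%, 3.29% and 6.31% were called at that minimum. Without a fold minimum, 22 were called in KO against WT, 17 in Het against WT and 21 in KO against Het, where 47.1%, 36.6% and 46.1% of all probe sets passed. Leaving out each array in turn gave 11 calls throughout in KO against WT, 5 throughout in Het against WT and 3 to 6 in KO against Het. The shares of all probe sets called ran from 2.85% to 2.92%, from 0.34% to 0.403% and from 1.6% to 1.73%. The 6 calls, without KO replicate 3, added Ccl3 (-1.03) and Ccl27a (-1.004). Leaving out each array gave 34 to 36 probe sets above background in at least 1 line, and other background values gave 31 (50th percentile) to 44 (highest Y-linked mean). The fit with the replicate number as a block gave 11, 5 and 4 calls, as without it; deviations of same-numbered arrays of different lines correlated at -0.15 to 0.30, and 2 of 9 arrays were closest to their own number. With 1 line per genotype, no alternative bears on differences between embryos.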
